A study of Homo sapiens with 72 samples.

Results

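The transcription factor ATF4 and 9 of its known target genes were followed across every condition of a population RNA-seq series of U2OS cells, a human osteosarcoma line. The 10 genes, of 60371 listed, were chosen by name as ATF4 and its targets, and by values measured in the same wells. Those values were the rise of DDIT4 and ALDH1L2 with 10000 nM pyrazolanthrone and the fall of CHAC1 with triptolide. These contrasts, at every dose of triptolide, are therefore described without a test, and tests are kept for the remaining 14 comparisons with DMSO and for 3 dose trends.

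Of 72 wells of unmodified U2OS cells, 18 received DMSO alone and 54 received 1 of 6 compounds, each at 100, 1000 or 10000 nM with 3 wells per dose, and all were collected after 12 h. Triptolide blocks transcription through the helicase of the general factor TFIIH, and homoharringtonine blocks translation elongation. Pyrazolanthrone inhibits JNK kinases, nilotinib inhibits the ABL kinase, MK-2206 inhibits AKT and miglitol inhibits intestinal alpha-glucosidases. The line is a single tumour-derived line, and the wells are not stated to be separate cultures, so p-values measure the spread between these wells, which may be technical. The same 18 DMSO wells served every comparison, so comparisons are not independent of each other.

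When amino acids run short or unfolded proteins accumulate, kinases phosphorylate the initiation factor eIF2. General translation then falls while the mRNA of ATF4 is translated more. ATF4 pairs with C/EBP proteins at composite C/EBP-ATF elements and switches on genes for amino acid synthesis, amino acid import and mitochondrial folate metabolism. Under prolonged stress it also switches on DDIT3, which encodes the factor CHOP, and with CHOP it drives TRIB3 and CHAC1. In tumour cells the pathway is known for supplying asparagine, serine and one-carbon units.

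The composite element was searched as TGATGNAA on both strands of RefSeq promoters of GRCh38.p14, of which 9 of the 10 genes had an entry. From 250 bases before to 50 after the start site, it was found at 2 of these 9 genes, ASNS and CHAC1, against 3.63% of 34796 promoters. Over the 1000 bases before the start site, read from the same genome build, 6 of 9 genes held it against 4523 of 34796 promoters. The narrower TGATGCAA, whose matches are all also matches to TGATGNAA, was found at 4 of 9 genes against 2.5% of promoters. The palindromic cyclic AMP element TGACGTCA was in none of the 9 longer windows and in 2.36% of promoters. A gene was counted if any of its promoter entries held a match, and TRIB3, ATF4, DDIT3 and ASNS have several. The shares are over single promoters, so the 2 are not in the same unit. A match is a description of the letters and no evidence of binding. The windows below show the letters that the members share and how far they lie from the start site. They are written 5′ to 3′ on the strand of the gene, and capitals mark the match, which reads TTNCATCA where it lies on the other strand.
CHAC1: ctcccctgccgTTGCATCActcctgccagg
DDIT3: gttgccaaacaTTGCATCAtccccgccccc
TRIB3: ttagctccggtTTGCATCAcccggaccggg
DDIT4: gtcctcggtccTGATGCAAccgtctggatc
ASNS: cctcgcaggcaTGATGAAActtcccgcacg
SESN2: gtgaagtccctTTTCATCAcgcaaccctaa
The CHAC1 window is at chr15:40953251-40953280 on the plus strand, its match begins 209 bases before the start site, and it lies in an untranslated exon of the alternative transcript CHAC1-201. The DDIT3 window is at chr12:57520802-57520831 on the minus strand, 303 bases before the start site and in an intron of DDIT3-206. The ASNS window is at chr7:97872458-97872487 on the minus strand, 68 bases before the start site and in an untranslated exon of ASNS-201, and a second match at ASNS starts 886 bases before the start site. The DDIT4 window at chr10:72272967-72272996 lies 946 bases before the start site, and the SESN2 window at chr1:28259211-28259240 lies 296 bases before it. Both are on the plus strand and upstream of all annotated transcripts of their genes. The TRIB3 window occurs 3 times with identical letters, at chr20:380881-380910, chr20:380914-380943 and chr20:380947-380976 on the plus strand, so its matches start 403, 370 and 337 bases before the start site. ATF4, PSAT1 and MTHFD2 had no match to these letters in the window, and ALDH1L2 had no entry.

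Summed expected counts per well ranged from 70767 to 68.3 M counts with a median of 38.4 M. Of the 72 libraries, 3 were under 10 M counts: well 2 of 100 nM triptolide with 70767 counts, DMSO well 10 with 460014, and well 1 of 1000 nM triptolide. The mesenchymal markers VIM, SPARC, FN1, COL1A1 and CDH2 had medians of 75.9 to 2109 TPM, but COL1A2 was at a median of 0.07 TPM and the mature osteoblast markers BGLAP, IBSP and SP7 at 0 to 0.27 TPM. RUNX2 had a median of 3.32 TPM, and the osteoblast marker ALPL a median of 4.31 TPM with a range of 1.28 to 25.2. Of the markers of other cell types, EPCAM had a median of 2.49 TPM and the others were at or below 0.34 TPM. Counts are reads without molecular identifiers, so they are not independent molecules.

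In DMSO, ATF4 was by far the most abundant member. TPM, which divides by transcript length, allows genes to be compared with each other. ATF4 was at 758 TPM ± 74.0 (SD, n = 18), from 589 to 833. MTHFD2, a mitochondrial folate enzyme, followed at 339 ± 38.1, and ASNS, which makes asparagine, at 131 ± 34.5. The ranges of these 3 genes did not overlap each other or those of the rest. PSAT1, an enzyme of serine synthesis, was at 62.3 TPM ± 4.89, the mTORC1 inhibitor DDIT4 at 52.5 ± 6.67 and the pseudokinase TRIB3 at 48.6 ± 4.30. CHAC1, which degrades glutathione, was at 38.9 TPM ± 7.30, the leucine sensor SESN2 at 33.0 ± 3.98 and DDIT3 at 20.6 ± 6.68. From PSAT1 down to DDIT3, the range of each gene overlapped that of the next. ALDH1L2, a mitochondrial formyltetrahydrofolate dehydrogenase, was lowest at 3.52 TPM ± 1.19. The highest DDIT3 and the lowest CHAC1 value in DMSO came from the well of 460014 counts, with 11 and 8 counts. Without that well, DDIT3 was at 19.1 ± 2.04 and CHAC1 at 40.2 ± 4.95 TPM (n = 17).

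**Figure D1:**
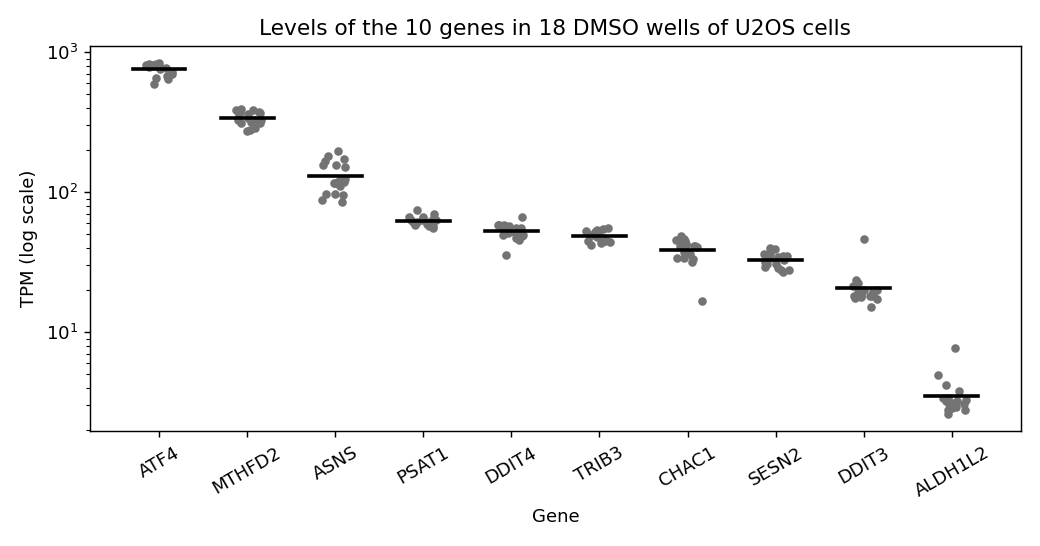
TPM on a log scale for each of 18 DMSO wells (points) and their mean (bars) for the 10 genes. ATF4, MTHFD2 and ASNS stand clear of the others, ALDH1L2 is lowest, and the DDIT3 point at 46.2 TPM and the CHAC1 point at 16.9 TPM are the well of 460014 counts.

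Homoharringtonine separated ATF4 and DDIT3 from their fellow members at every dose. CPM, which divides a count by the TMM-scaled library total, compares 1 gene between wells. ATF4 was at 485 CPM in the lowest DMSO well, 637 at the median and 740 in the highest. Its 3 wells with 100 nM homoharringtonine were at 1498, 1509 and 1783 CPM, with 1000 nM at 1884, 1511 and 1363, and with 10000 nM at 1800, 1820 and 1651. Every one of these 9 wells was above every DMSO well, and the doses overlapped each other. The log2(fold change) against DMSO was 1.32 (SE 0.10, adjusted p = 4.9e-11, edgeR) at 100 nM, 1.30 (SE 0.11, adjusted p = 1.8e-10) at 1000 nM and 1.42 (SE 0.10, adjusted p = 3.3e-12) at 10000 nM. In bulk RNA, fewer cells and less RNA per cell cannot be told apart, and TMM-scaled changes are relative to most other transcripts.

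DDIT3 had larger fold changes than ATF4 and rose with dose. It was at 7.59, 9.43 and 19.3 CPM in the lowest, median and highest DMSO well. With homoharringtonine it was at 28.3, 29.2 and 32.7 CPM at 100 nM, at 80.2, 61.9 and 53.5 at 1000 nM and at 73.5, 72.1 and 69.7 at 10000 nM. No treated well overlapped DMSO, and all wells at the upper 2 doses were above all wells at 100 nM. The log2(fold change) was 1.65 (SE 0.13, adjusted p = 4.0e-11, edgeR), 2.75 (SE 0.13, adjusted p = 2.7e-15) and 2.86 (SE 0.11, adjusted p = 1.0e-16) from the lowest dose to the highest. DDIT3 overlaps MARS1 and MBD6 on the opposite strand, with 2295% and 272% of its counts. The libraries are stranded by their kit, but the strand setting of the counting is not given in the sources used here, so reads in the overlaps may be split.

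ATF4 and DDIT3 were the 2 members that rose at each dose of homoharringtonine, where 31.1% of genes tested rose at 100 nM, 35.0% at 1000 nM and 36.7% at 10000 nM. Of the other 8 members, 8 fell at 100 nM, 7 at 1000 nM and 6 at 10000 nM, where 32.3%, 33.4% and 37.2% of genes fell. The median log2(fold change) of the 10 members was -1.07, -1.35 and -1.33 at the 3 doses, beside -0.03, -0.01 and -0.05 for all genes tested. These directions were the same with library sizes only and with scaling to mitochondrially encoded mRNAs, which moved the median of all genes by up to 0.27.

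**Figure D2:**
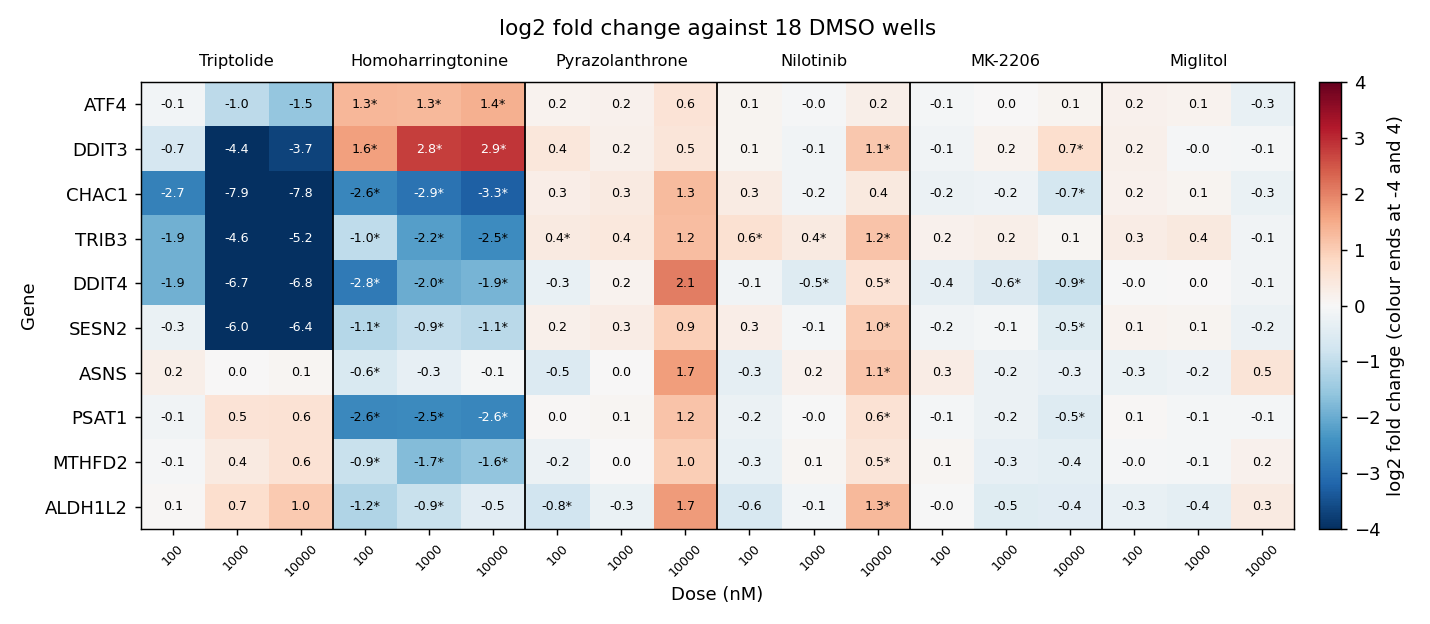
log2(fold change) of the 10 genes (rows) against 18 DMSO wells for each compound and dose in nM (columns), with asterisks where the adjusted p was under 0.05 in a tested comparison. Triptolide and 10000 nM pyrazolanthrone carry no asterisks because the members were chosen on them. With homoharringtonine ATF4 and DDIT3 are red and most others blue, and with 10000 nM pyrazolanthrone and nilotinib the column is red throughout.

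CHAC1 fell most with homoharringtonine at 1000 and 10000 nM. It was at 14.02, 38.9 and 46.3 CPM in the lowest, median and highest DMSO well. The wells with homoharringtonine were at 5.78, 5.40 and 7.23 CPM at 100 nM, at 6.08, 4.60 and 3.92 at 1000 nM and at 4.31, 4.23 and 3.26 at 10000 nM. All of them were below every DMSO well, and at 10000 nM the mean was 10.7% of the DMSO mean. On the log2 scale the change reached -3.28 (SE 0.20, adjusted p = 3.8e-13, edgeR) at 10000 nM, after -2.59 (SE 0.20, adjusted p = 4.6e-11) at 100 nM and -2.95 (SE 0.22, adjusted p = 1.7e-11) at 1000 nM.

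TRIB3, a pseudokinase that CHOP induces and that restrains both AKT and ATF4, fell in steps. Its DMSO wells ran from 63.1 through a median of 74.2 to 88.6 CPM. The wells were at 32.8, 35.7 and 43.7 CPM at 100 nM homoharringtonine, at 19.1, 16.4 and 14.2 at 1000 nM and at 13.6, 13.2 and 13.2 at 10000 nM. The 3 doses did not overlap each other or DMSO. The log2(fold change) was -1.0002 (SE 0.12, adjusted p = 6.4e-08, edgeR), -2.19 (SE 0.13, adjusted p = 3.6e-13) and -2.53 (SE 0.12, adjusted p = 4.2e-15).

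DDIT4 fell most at the lowest dose. DDIT4 encodes REDD1, which holds mTORC1 back under stress. It was at 39.5, 53.5 and 63.7 CPM in the lowest, median and highest DMSO well. With homoharringtonine it was at 5.99, 7.84 and 8.92 CPM at 100 nM, at 13.96, 15.9 and 11.6 at 1000 nM and at 16.6, 15.1 and 14.2 at 10000 nM. The wells at 100 nM were below those at the other doses, and the upper 2 doses overlapped. Its log2(fold change) was -2.84 (SE 0.15, adjusted p = 6.3e-14, edgeR) at 100 nM, -1.99 (SE 0.14, adjusted p = 7.8e-12) at 1000 nM and -1.87 (SE 0.12, adjusted p = 1.5e-12) at 10000 nM.

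SESN2, which also holds mTORC1 back and senses leucine, ranged from 56.8 to 93.3 CPM in DMSO with a median of 75.3. It was at 29.1, 31.3 and 39.7 CPM with 100 nM homoharringtonine, at 46.0, 38.6 and 30.9 with 1000 nM and at 38.6, 35.4 and 33.7 with 10000 nM. All 9 wells were below DMSO, and the doses overlapped. Its log2(fold change) was -1.14 (SE 0.14, adjusted p = 2.2e-07, edgeR), -0.95 (SE 0.15, adjusted p = 4.0e-06) and -1.07 (SE 0.13, adjusted p = 4.8e-08).

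Of the 4 metabolic enzymes, PSAT1 and MTHFD2 fell clearly with homoharringtonine while ASNS passed the test at 100 nM only. PSAT1 was at 71.8, 84.5 and 95.3 CPM in the lowest, median and highest DMSO well and at 13.2 to 15.3 CPM in all 9 treated wells. That level was nearly the same at each dose, with means of 14.02, 14.5 and 14.1 CPM, and the log2(fold change) was -2.58 (SE 0.10, adjusted p = 1.5e-16, edgeR), -2.55 (SE 0.10, adjusted p = 2.4e-16) and -2.62 (SE 0.10, adjusted p = 5.5e-17). MTHFD2 was at 223, 288 and 379 CPM in the lowest, median and highest DMSO well. It was at 172, 155 and 141 CPM with 100 nM, at 69.1, 89.7 and 105 with 1000 nM and at 99.9, 93.8 and 108 with 10000 nM. The wells at 100 nM lay between DMSO and the upper 2 doses, with no overlap. MTHFD2 had a log2(fold change) of -0.90 (SE 0.13, adjusted p = 1.3e-06), -1.74 (SE 0.15, adjusted p = 2.1e-10) and -1.58 (SE 0.14, adjusted p = 3.7e-10).

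ASNS spread widely within DMSO, from 61.3 through a median of 126 to 215 CPM. It was at 111, 92.9 and 65.9 CPM with 100 nM homoharringtonine, at 61.5, 126 and 141 with 1000 nM and at 137, 127 and 141 with 10000 nM, all inside the DMSO range, whose lowest value is the well of 460014 counts. Of the treated wells, 1 at 100 nM and 1 at 1000 nM were below the 17 deeper DMSO wells. ASNS fell at 100 nM by 0.61 on the log2 scale (SE 0.26, adjusted p = 0.043, edgeR), a call lost without well 2 (adjusted p = 0.096) or without well 3 (adjusted p = 0.23). The values were -0.34 (SE 0.27, adjusted p = 0.27) at 1000 nM and -0.06 (SE 0.24, adjusted p = 0.82) at 10000 nM. ALDH1L2 was at 6.62, 9.87 and 15.5 CPM in the lowest, median and highest DMSO well. With homoharringtonine it was at 4.60, 4.73 and 3.78 CPM at 100 nM, at 3.29, 6.39 and 6.86 at 1000 nM and at 8.09, 6.72 and 7.84 at 10000 nM. It was below DMSO in every well at 100 nM, in 2 of 3 wells at 1000 nM, and inside the DMSO range at 10000 nM, with a log2(fold change) of -1.20 (SE 0.22, adjusted p = 3.8e-05), -0.88 (SE 0.23, adjusted p = 0.0019) and -0.46 (SE 0.21, adjusted p = 0.052). ALDH1L2 overlaps NOPCHAP1 and WASHC4 on the opposite strand, so its counts carry the same doubt as those of DDIT3.

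Across the treated wells, the dose of homoharringtonine was fitted as a slope on log2 expression for each 10-fold step, a test in which 44.0% of genes passed. Of the members, 6 passed. DDIT3 at 0.59 (SE 0.12, adjusted p = 0.0021, edgeR), DDIT4 at 0.47 (SE 0.11, adjusted p = 0.0058) and ALDH1L2 at 0.36 (SE 0.12, adjusted p = 0.034) had rising slopes. TRIB3 at -0.78 (SE 0.10, adjusted p = 0.00026), CHAC1 at -0.35 (SE 0.10, adjusted p = 0.016) and MTHFD2 at -0.35 (SE 0.11, adjusted p = 0.028) had falling slopes. With library sizes only, the slopes of CHAC1 (-0.25, adjusted p = 0.071) and MTHFD2 (-0.25, adjusted p = 0.090) did not pass. ATF4 had a slope of 0.04 (SE 0.06, adjusted p = 0.65), SESN2 of 0.02 (SE 0.09), PSAT1 of -0.03 (SE 0.06) and ASNS of 0.26 (SE 0.14, adjusted p = 0.14).

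**Figure D3:**
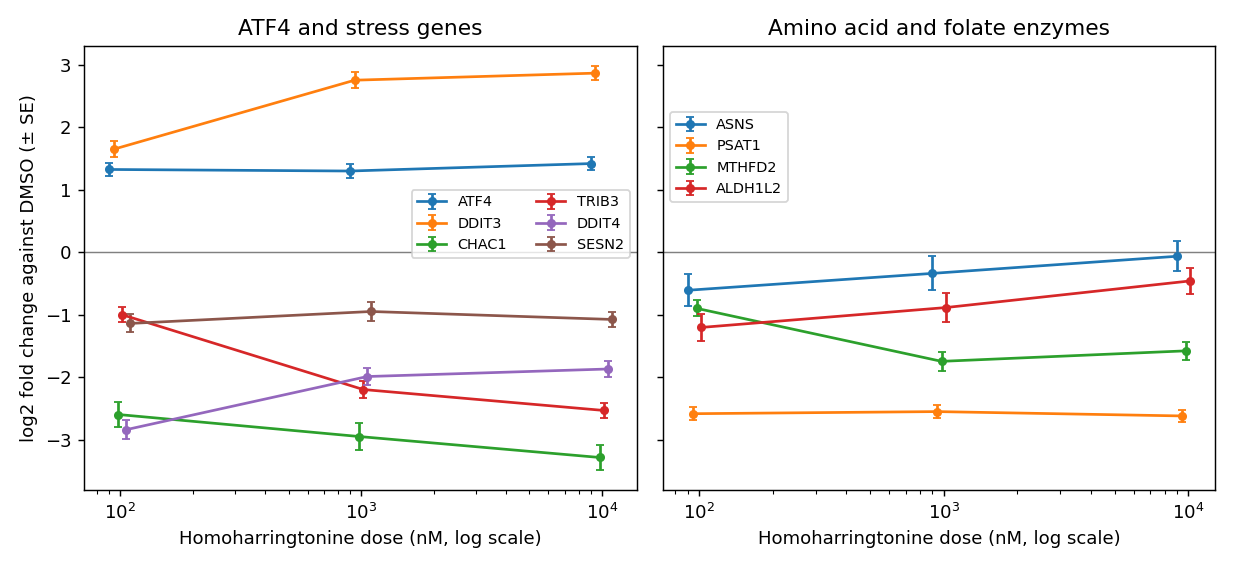
log2(fold change) against DMSO with its standard error (bars) at each dose of homoharringtonine on a log axis, with points shifted slightly sideways for clarity, for ATF4 and the stress genes (left) and the metabolic enzymes (right). ATF4 stays near 1.3 to 1.4, DDIT3 climbs from 1.65 to 2.86, TRIB3 falls from -1.0002 to -2.53, and DDIT4 and ALDH1L2 move toward 0.

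The levels of 6 members moved with a property of the libraries among the DMSO wells. For each library, a GC slope gives how far log2 expression moved, from gene to gene, with every 10 percentage points of GC in the transcripts. It was fitted in these same wells, over genes with a mean of at least 10 CPM, so movement with it is not particular to the members. By this construction, genes poor in GC are drawn toward negative r and genes rich in GC toward positive r. The permutation p-values therefore do not test the link independently. The share of all genes that correlate with it was not counted. The transcripts of MTHFD2, ALDH1L2, PSAT1 and ASNS hold 42.0% to 45.3% GC, those of DDIT3 and ATF4 50.3% and 54.4%, and those of DDIT4, SESN2, TRIB3 and CHAC1 58.9% to 62.8%. Over 17 DMSO wells, without the one of 460014 counts, log2(CPM + 1) of ALDH1L2 correlated with the GC slope at Pearson r = -0.93 (permutation p = 1e-05, adjusted p = 2.5e-05 over 10 genes) and Spearman rho = -0.92 (p = 1e-05). This p is the smallest that 100000 permutations can give. For ASNS r was -0.92 and rho -0.93, for MTHFD2 -0.86 and -0.84, for SESN2 0.89 and 0.87, for ATF4 0.80 and 0.72 and for CHAC1 0.75 and 0.70, with permutation p-values for r of 0.00057 or less and adjusted p-values for both of 0.0036 or less. Without the 2 wells farthest from the median slope, r was -0.91 for ALDH1L2, -0.89 for ASNS, -0.80 for MTHFD2, 0.82 for SESN2, 0.69 for ATF4 and 0.62 for CHAC1. DDIT3, DDIT4, TRIB3 and PSAT1 had r of 0.49, 0.30, 0.30 and -0.16, with adjusted p-values of 0.063 or more.

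The GC slope was from -0.44 to 0.31 in DMSO and from -0.66 to -0.51 in the wells with 10000 nM homoharringtonine. With the slope as a covariate, a fit chosen after seeing the data, ASNS fell at every dose of homoharringtonine. Its log2(fold change) was then -1.04 at 100 nM (adjusted p = 1.4e-07, edgeR), -0.92 at 1000 nM (adjusted p = 1.5e-06) and -0.98 at 10000 nM (adjusted p = 9.8e-06). ALDH1L2 fell at 10000 nM by 1.25 on the log2 scale (adjusted p = 1.1e-08). The rises of ATF4 and DDIT3 and the falls of CHAC1, TRIB3, DDIT4, SESN2, PSAT1 and MTHFD2 passed in this fit at each dose, with ATF4 at 1.52 to 1.79 and SESN2 at -0.91 to -0.63. Every well at 10000 nM had a slope below the DMSO range, so the adjusted values there extend the fit beyond the DMSO wells. Their small adjusted p-values do not measure that uncertainty. The slope can itself follow a treatment, and its part in the main values was not tested beyond this fit.

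**Figure D4:**
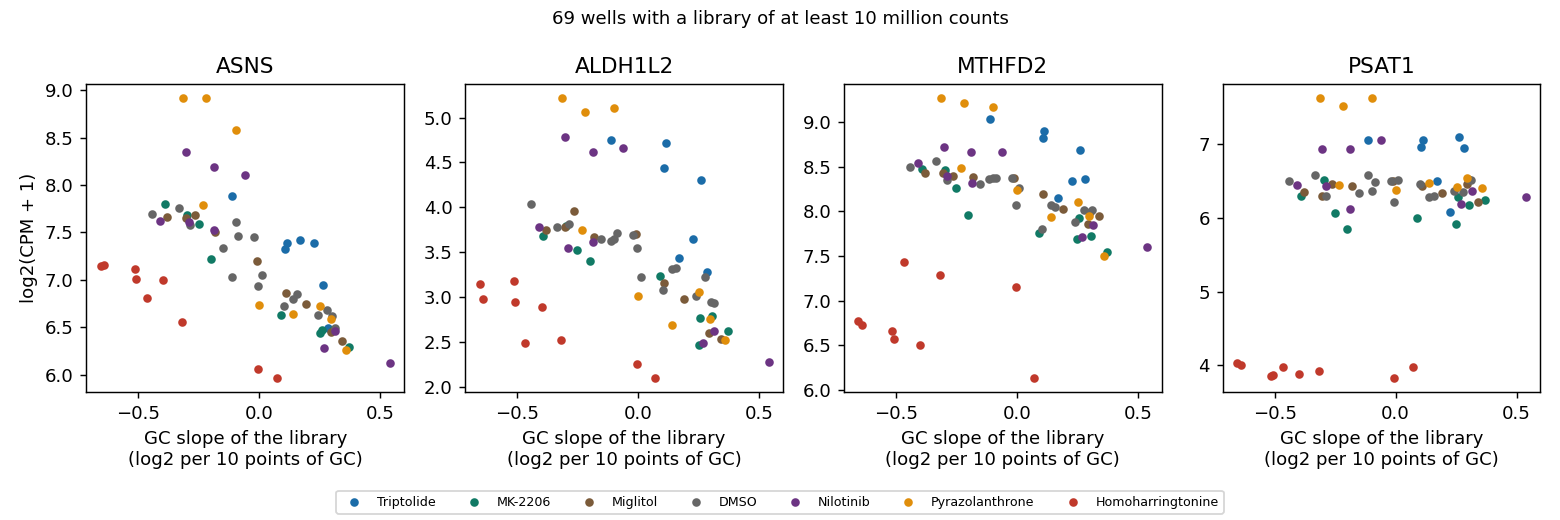
log2(CPM + 1) of 4 enzymes against the GC slope of the library in 69 wells with at least 10 M counts, coloured by compound. ASNS, ALDH1L2 and MTHFD2 fall with the slope among the grey DMSO wells, PSAT1 does not, and the homoharringtonine wells (red) lie below all DMSO wells for MTHFD2 and PSAT1 and below the DMSO wells of the nearest slope for ASNS and ALDH1L2.

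The wider pathway was read from 65 genes in 7 lists, chosen with earlier results of these data known. With 10000 nM homoharringtonine, 19 of 65 rose and 33 fell, where 36.7% of all genes tested rose and 37.2% fell. In the list of eIF2 kinases, eIF2 and eIF2B subunits and eIF2 phosphatase subunits, 6 of 14 rose and 3 fell. PPP1R15A, the stress-induced phosphatase subunit GADD34 that ATF4 and CHOP switch on, rose most, from 78.8 CPM ± 41.3 (n = 18) to 1365 ± 22.9 (n = 3), a log2(fold change) of 4.16 (SE 0.21, adjusted p = 1.4e-14, edgeR). EIF2AK4, the amino acid sensor GCN2, fell most, by 1.04 on the log2 scale (SE 0.16, adjusted p = 3.9e-06). Of 8 transcription factors, 4 rose and 3 fell, with ATF3 from 24.1 ± 19.9 to 777 ± 58.7 CPM, a log2(fold change) of 5.20 (SE 0.22, adjusted p = 3.6e-16). CEBPG, a binding partner of ATF4, fell by 1.07 (SE 0.11, adjusted p = 9.5e-09).

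The metabolic lists were counted at the same dose, where 37.2% of all genes tested fell and 36.7% rose. Of 10 serine, glycine and one-carbon enzymes, 9 fell and 1 rose, with a median log2(fold change) of -0.77. PSPH, which completes serine synthesis, fell from 48.0 CPM ± 7.49 to 10.1 ± 0.80 (log2(fold change) -2.30, SE 0.14, adjusted p = 2.2e-13, edgeR), and the folate carrier SLC25A32 rose by 1.58 on the log2 scale (SE 0.17). Of 10 other amino acid synthesis enzymes 6 fell and 4 rose, led by GPT2 at -2.30 (SE 0.12) and by glutamine synthetase GLUL at 2.08 (SE 0.13). Of 9 amino acid transporters 6 fell and 1 rose, with a median of -2.38. The glycine carrier SLC6A9 fell most, from 21.5 CPM ± 5.19 to 1.43 ± 0.12 (log2(fold change) -3.98, SE 0.22, adjusted p = 4.1e-14). SLC3A2, the heavy chain shared by several of these carriers, rose from 463 ± 44.8 to 1244 ± 49.2 CPM (log2(fold change) 1.39, SE 0.08, adjusted p = 4.8e-14).

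Of 10 mTORC1 and growth regulators and paralogs of members, 4 fell and 2 rose, beside 37.2% and 36.7% of all genes. TRIB2, a paralog of TRIB3, fell from 43.0 CPM ± 4.53 to 4.64 ± 0.21 (log2(fold change) -3.24, SE 0.13, adjusted p = 1.1e-16, edgeR). DDIT4L, a paralog of DDIT4, passed the test as a rise from very little, with 17 of 18 DMSO wells at 0 and 0.65 CPM ± 0.08 in the treated wells, so no fold is given. The remaining DMSO well was at 1.75 CPM, above every treated well. Of 4 secreted stress proteins 2 fell and 1 rose, with GDF15 at 0.67 CPM ± 0.27 in DMSO and 2.00 ± 0.22 with the compound, and FGF21 at 0.62 ± 0.30 and 0.10 ± 0.03. At 1000 nM the 7 lists together had 21 rises and 30 falls of 65 genes, beside 35.0% and 33.4% of all genes, and at 100 nM 26 rises and 29 falls of 64 tested, beside 31.1% and 32.3%.

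**Figure D5:**
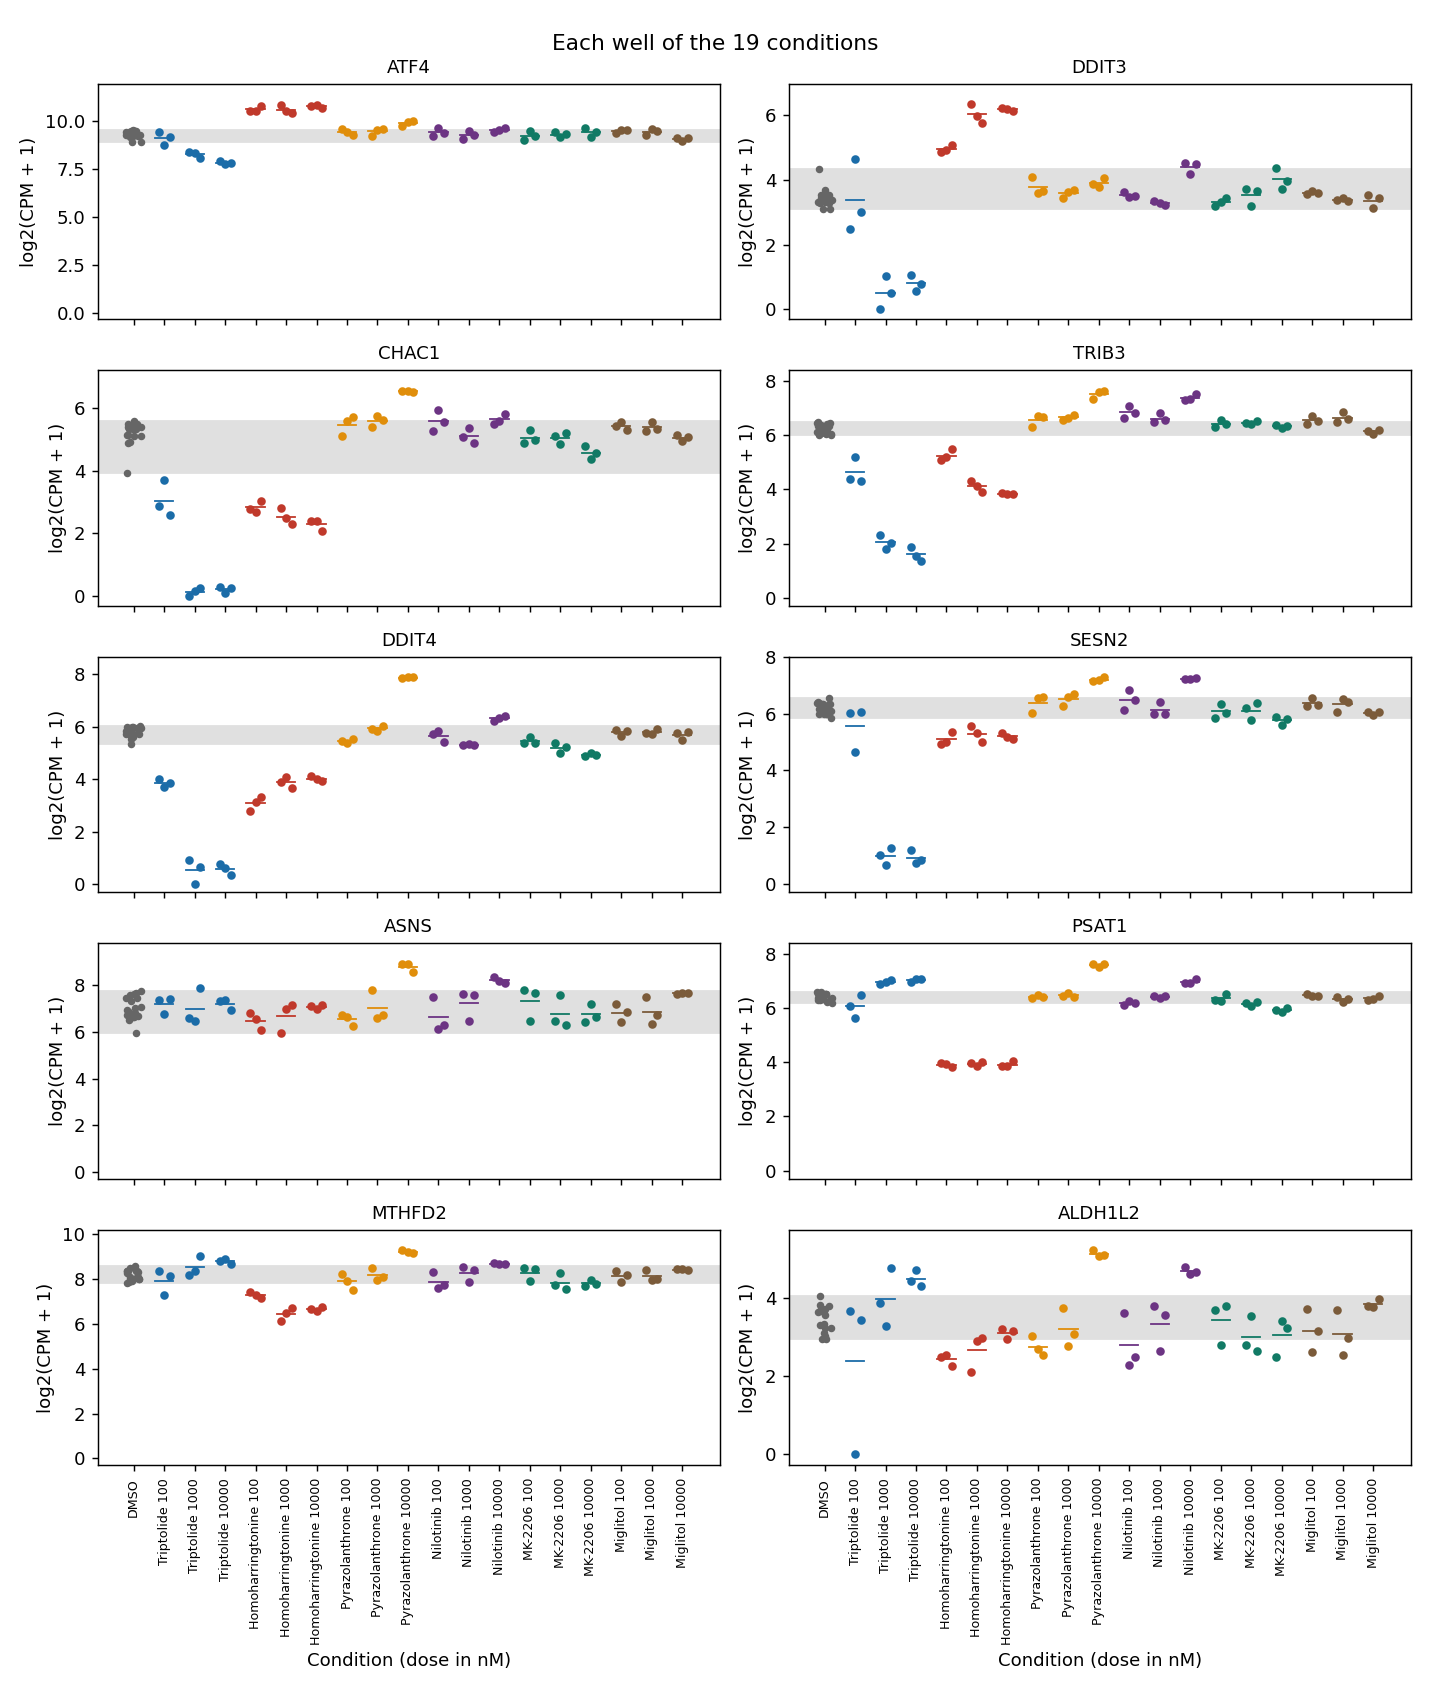
log2(CPM + 1) of each well (points) and the mean of 3 wells (bars) in the 19 conditions, with the range of the 18 DMSO wells shaded. Homoharringtonine wells (red) lie above the shading for ATF4 and DDIT3 and below it for CHAC1, TRIB3, DDIT4, SESN2, PSAT1 and MTHFD2, and nilotinib at 10000 nM lies above it for TRIB3, DDIT4, SESN2, ASNS, PSAT1, MTHFD2 and ALDH1L2.

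Nilotinib raised most members at 10000 nM. Of the 10, 8 rose and 0 fell, where 7.97% of genes rose and 6.39% fell, and the median log2(fold change) of the members was 0.79 beside 0.01 for all genes. TRIB3 was at 160, 162 and 182 CPM, above every DMSO well, with a log2(fold change) of 1.16 (SE 0.09, adjusted p = 1.6e-09, edgeR). SESN2 was at 149, 148 and 152 CPM, also above every DMSO well, with 1.02 (SE 0.11, adjusted p = 1.7e-07). Its mean was 202% of the DMSO mean, the highest of any condition for this gene and close to the 198% with 10000 nM pyrazolanthrone. DDIT3 was at 22.2, 17.3 and 21.7 CPM, above the 17 deeper DMSO wells and overlapping the well of 460014 counts, with 1.08 (SE 0.13, adjusted p = 2.9e-06).

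The metabolic enzymes rose with 10000 nM nilotinib as well. ALDH1L2 was at 26.5, 23.4 and 24.3 CPM (log2(fold change) 1.29, SE 0.18, adjusted p = 1.4e-05, edgeR) and ASNS at 325, 291 and 275 CPM (1.11, SE 0.22, adjusted p = 0.0011). PSAT1 was at 121, 122 and 133 CPM (0.57, SE 0.08, adjusted p = 6.7e-06) and MTHFD2 at 422, 407 and 407 CPM (0.49, SE 0.12, adjusted p = 0.0049). All 12 of these values, and those of DDIT4 at 72.9, 78.7 and 84.8 CPM (0.54, SE 0.10, adjusted p = 0.00058), were above every DMSO well. ATF4 at 708, 746 and 820 CPM (0.24, SE 0.11, adjusted p = 0.15) and CHAC1 at 44.0, 47.3 and 55.0 CPM (0.39, SE 0.15, adjusted p = 0.078) missed the threshold, with 2 of 3 wells above DMSO for each. The GC slope of these wells, -0.30 to -0.06, was within the DMSO range, and with it as a covariate ATF4 (0.37, adjusted p = 0.00079) and CHAC1 (0.52, adjusted p = 0.00021) also passed. Scaled to mitochondrially encoded mRNAs, which lowered the median of all genes by 0.69, DDIT4 at -0.18, PSAT1 at -0.13 and MTHFD2 at -0.18 changed sign, and the rises of DDIT3 at 0.34, TRIB3 at 0.44 and SESN2 at 0.28 no longer passed.

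Of the 64 tested genes in the 7 lists, 17 rose and 4 fell with 10000 nM nilotinib, where 7.97% of all genes tested rose and 6.39% fell. TRIB1, another pseudokinase of the TRIB3 family, rose most, by 1.73 on the log2 scale (SE 0.14, adjusted p = 4.1e-09, edgeR). The 4 that fell were CASTOR2 at -0.65, GLUL at -0.62, ATF5 at -0.58 and CHAC2 at -0.39. Amino acid transporters gave 5 of 9 rises, SLC1A4, SLC3A2, SLC6A9, SLC7A1 and SLC7A11, and no fall. Of the serine, glycine and one-carbon enzymes PSPH and SHMT2 rose, PSPH by 0.71 on the log2 scale (SE 0.10, adjusted p = 2.9e-05, edgeR). PPP1R15A rose from 78.8 CPM ± 41.3 to 152 ± 4.29, by 1.03 (SE 0.25, adjusted p = 0.0065). Its wells, at 157, 151 and 149 CPM, were above the DMSO median of 71 but below the highest DMSO well at 238. XBP1, a factor of the unfolded protein response, rose by 0.996 (SE 0.10, adjusted p = 6.9e-08).

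At the lower doses of nilotinib few members moved. At 1000 nM, where 3.95% of genes passed, DDIT4 fell to 38.0, 39.8 and 38.5 CPM, 2 of them below every DMSO well (log2(fold change) -0.50, SE 0.12, adjusted p = 0.012, edgeR). TRIB3 rose to 88.5, 112 and 93.6 CPM, 2 of them above DMSO (0.37, SE 0.10, adjusted p = 0.045). The call on DDIT4 was lost without well 1 (adjusted p = 0.11), and that on TRIB3 without any of the 3 wells (adjusted p from 0.081 to 0.22). At 100 nM, where 9.08% of genes passed, only TRIB3 did, at 99.1, 134 and 113 CPM, all above DMSO (0.60, SE 0.10, adjusted p = 0.00058). TRIB3 was also higher with 1000 nM miglitol, by 0.40 (SE 0.10, adjusted p = 0.15, edgeR), beside 0.37 with 1000 nM nilotinib.

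Well 1 of 100 nM nilotinib stood apart for ASNS at 183 CPM against 68.8 and 76.6, for ALDH1L2 at 11.3 against 3.86 and 4.60 and for MTHFD2 at 318 against 193 and 209. Without it, ALDH1L2 fell by 1.22 (adjusted p = 0.0033), ASNS fell by 0.89 (adjusted p = 0.043) and MTHFD2 fell by 0.50 (adjusted p = 0.018), while CHAC1 rose by 0.53 (adjusted p = 0.038) and SESN2 by 0.47 (adjusted p = 0.024), all on the log2 scale. The GC slope was -0.19 in well 1 and 0.54 and 0.27 in the others. With the slope as a covariate over all 3 wells, ALDH1L2 was at -0.39 (adjusted p = 0.017, edgeR), MTHFD2 at -0.14 (adjusted p = 0.19) and ASNS at -0.07 (adjusted p = 0.75). Such a spread was not confined to this group. In wells 1, 2 and 3 of 1000 nM pyrazolanthrone ASNS was at 220, 95.2 and 105 CPM. Its wells with 1000 nM miglitol were at 180, 80.6 and 106 CPM. With 1000 nM MK-2206 well 2 was the highest, at 191 CPM beside 87.9 and 77.3. In each of these groups the well highest for ASNS had the lowest GC slope, at -0.23, -0.18 and -0.25.

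The slope on nilotinib dose passed for 3.09% of genes and for 2 members, ALDH1L2 at 0.96 per 10-fold step (SE 0.20, adjusted p = 0.035, edgeR) and PSAT1 at 0.39 (SE 0.06, adjusted p = 0.016). MTHFD2 at 0.39 (SE 0.10, adjusted p = 0.060), ASNS at 0.72 (SE 0.18, adjusted p = 0.061) and DDIT3 at 0.47 (SE 0.14, adjusted p = 0.088) missed it. TRIB3 had a slope of 0.26 (SE 0.11, adjusted p = 0.18).

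With MK-2206 DDIT4 was the member that fell furthest. At 10000 nM, where 3.15% of genes passed in either direction, 4 members fell and 1 rose. DDIT4 was at 28.7, 30.8 and 29.2 CPM, all below every DMSO well and 53.9% of the DMSO mean (log2(fold change) -0.89, SE 0.11, adjusted p = 1.9e-05, edgeR). PSAT1 was at 59.4, 56.5 and 62.9 CPM, also below every DMSO well (-0.51, SE 0.08, adjusted p = 0.00058). CHAC1 was at 26.7, 19.7 and 22.4 CPM, below the 17 deeper DMSO wells (-0.71, SE 0.17, adjusted p = 0.014), and SESN2 at 57.8, 46.9 and 55.7 CPM with 2 of 3 wells below DMSO (-0.47, SE 0.13, adjusted p = 0.034). DDIT3 rose to 19.6, 12.2 and 14.8 CPM (0.68, SE 0.15, adjusted p = 0.0094). With 2 wells, CHAC1 missed the threshold without well 2 (-0.58, adjusted p = 0.19) and without well 3 (-0.71, adjusted p = 0.096), and DDIT3 without well 1 (0.48, adjusted p = 0.24) and without well 3 (0.70, adjusted p = 0.057). SESN2 missed it when wells 1, 2 and 3 were left out in turn, at -0.53 (adjusted p = 0.088), -0.36 (adjusted p = 0.34) and -0.52 (adjusted p = 0.11).

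ATF4 was at 819, 580 and 703.5 CPM with 10000 nM MK-2206 (log2(fold change) 0.12, SE 0.12, adjusted p = 0.81, edgeR), and TRIB3 at 81.7, 77.2 and 79.6 CPM inside the DMSO range (0.07, SE 0.10, adjusted p = 0.88). Of the 64 tested genes of the lists, 4 rose and 4 fell, beside 3.15% of all genes in either direction. At 1000 nM, where 1.52% of genes passed, only DDIT4 did, at 40.8, 30.8 and 36.7 CPM (-0.59, SE 0.13, adjusted p = 0.014), and not without well 2 or well 3 (adjusted p = 0.085 for both). At 100 nM, where 0.0648% of genes passed, no member did by edgeR, with 1376 genes at an unadjusted p under 0.05, and DDIT4 was at 40.8, 47.4 and 40.8 CPM (-0.36, SE 0.12, adjusted p = 0.34). The slope on dose passed for 0.028% of genes and no member, and was -0.26 for DDIT4 (SE 0.07, adjusted p = 0.38) and -0.22 for PSAT1 (SE 0.06, adjusted p = 0.37).

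No member passed with miglitol at any dose, and 0.0% of genes passed by edgeR at 10000, 1000 and 100 nM, with 4195, 1563 and 944 genes at an unadjusted p under 0.05. At 10000 nM ASNS was at 200, 202 and 205 CPM, inside the DMSO range (log2(fold change) 0.51, SE 0.23, adjusted p = 0.22). ALDH1L2 was at 12.7, 12.5 and 14.6 CPM (0.35, SE 0.19, adjusted p = 0.25) and ATF4 at 554, 512 and 556 CPM (-0.29, SE 0.11, adjusted p = 0.22). These wells had GC slopes of -0.38 to -0.26, toward the low end of DMSO. TRIB3 with 1000 nM was at 90.1, 115 and 95.6 CPM, above every DMSO well (0.40, SE 0.10, adjusted p = 0.15), and it passed with DESeq2 (adjusted p = 0.037). That value is as large as the called rises of TRIB3 with 1000 nM nilotinib (0.37) and 100 nM pyrazolanthrone (0.36). By mean CPM of TRIB3, DMSO ranked 12 among the 19 conditions.

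Pyrazolanthrone at its lower doses moved members little. At 1000 nM, 0.0% of genes passed by edgeR, with 1033 at an unadjusted p under 0.05, and TRIB3 at 94.5, 99.9 and 108 CPM was above every DMSO well without passing (log2(fold change) 0.42, SE 0.10, adjusted p = 0.47). At 100 nM 4.77% of genes passed. TRIB3 rose to 78.8, 104 and 100 CPM (0.36, SE 0.10, adjusted p = 0.048), and ALDH1L2 fell to 7.10, 5.45 and 4.75 CPM (-0.78, SE 0.22, adjusted p = 0.044). Both calls were lost without well 2 (adjusted p = 0.31 and 0.22) and without well 3 (adjusted p = 0.31 and 0.27). The fragment lengths of these 3 libraries, 151 to 155 bases, lay at the short end of the 144 to 217 in DMSO. With fragment length as a covariate the log2(fold change) of ALDH1L2 was -0.43 (adjusted p = 0.48) and that of TRIB3 0.30 (adjusted p = 0.38).

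With 10000 nM pyrazolanthrone, where DDIT4 and ALDH1L2 chose the list, every member was higher than in DMSO. Of all 18494 genes tested there, 619 rose and 796 fell at an adjusted p under 0.05 (edgeR), and the median log2(fold change) was -0.003. DDIT4 was at 230, 235 and 234 CPM, 424% of the DMSO mean, with a log2(fold change) of 2.06 (SE 0.09). ALDH1L2 was at 36.3, 32.4 and 33.4 CPM (1.71, SE 0.17) and ASNS at 483, 482 and 381 CPM (1.66, SE 0.21). CHAC1 was at 92.3, 92.2 and 89.0 CPM (1.25, SE 0.13), TRIB3 at 160, 192 and 200 CPM (1.25, SE 0.09) and PSAT1 at 198, 184 and 197 CPM (1.15, SE 0.07). MTHFD2 at 619, 596 and 575 CPM (0.99, SE 0.11), SESN2 at 140, 145 and 155 CPM (0.95, SE 0.11) and ATF4 at 882, 988 and 1037 CPM (0.55, SE 0.11) were likewise above every DMSO well. DDIT3 changed least, at 13.8, 12.6 and 15.6 CPM (0.50, SE 0.14), above the 17 deeper DMSO wells. The next value after those of DDIT4 and ALDH1L2, which the rule names, was that of ASNS.

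With the upper 2 doses of triptolide 5 members were nearly lost, ATF4 was lower and the means of the 4 enzymes stood at or above DMSO. CHAC1 was at 0.24, 0.07 and 0.20 CPM with 10000 nM, from 6, 2 and 5 counts, and the 13 counts together are 0.453% of the DMSO mean (exact Poisson interval 0.241 to 0.775%, counting error only). With 1000 nM it had 0, 1 and 8 counts, or 0.426% (0.195 to 0.808%), where the well at 0 allows up to 0.39 CPM from 3 counts. With 100 nM the 2 deep wells were at 6.28 and 4.96 CPM. DDIT4 was at 0.71, 0.54 and 0.28 CPM with 10000 nM, 0.933% of the DMSO mean (0.666 to 1.27%), and SESN2 at 1.27, 0.65 and 0.79 CPM, 1.21% (0.946 to 1.53%). TRIB3 was at 2.69, 1.89 and 1.58 CPM, 2.72% (2.31 to 3.18%), and DDIT3 at 1.11, 0.47 and 0.71 CPM, 7.61% (5.80 to 9.79%). All wells of these 5 genes at the upper 2 doses were below every DMSO well.

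ATF4 itself kept more of its level with triptolide. It was at 241, 217 and 224 CPM with 10000 nM, 35.3% of the DMSO mean, and at 334, 328 and 277 CPM with 1000 nM, 48.6%. The log2(fold change) was -1.55 (SE 0.12) and -1.05 (SE 0.12), beside -7.83 (SE 0.33) and -7.95 (SE 0.37) for CHAC1, -6.78 (SE 0.23) and -6.72 (SE 0.30) for DDIT4, -6.41 (SE 0.23) and -6.05 (SE 0.23) for SESN2, -5.25 (SE 0.18) and -4.61 (SE 0.18) for TRIB3 and -3.71 (SE 0.24) and -4.39 (SE 0.35) for DDIT3. The fitted value for CHAC1 rests on few counts.

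The metabolic enzymes stood at or above DMSO with 10000 nM triptolide. PSAT1 was at 124, 133 and 136 CPM (log2(fold change) 0.58, SE 0.08), MTHFD2 at 454, 477 and 411 CPM (0.56, SE 0.12) and ALDH1L2 at 20.7, 25.4 and 18.8 CPM (1.04, SE 0.18), all above every DMSO well. ASNS was at 159, 166 and 122 CPM, inside the DMSO range (0.06, SE 0.24). With 1000 nM the wells spread more, and well 3 was highest for each enzyme. ASNS was at 96.5, 88.9 and 235 CPM, ALDH1L2 at 13.5, 8.72 and 25.9 and MTHFD2 at 288, 328 and 524. PSAT1 at 118, 123 and 132 CPM was above every DMSO well. Wells 1 and 2 held 9.63 and 10.7 M counts and well 3 held 57.4 M. Scaled to mitochondrially encoded mRNAs, which lowered the median of all genes by 1.65 to 2.75, the values at 10000 nM turned to -2.20 for PSAT1, -2.19 for MTHFD2 and -1.68 for ALDH1L2, and that of PSAT1 at 1000 nM to -1.91. Only sign changes with both values beyond the spread between wells are named here, so other enzyme values may also have turned.

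At 100 nM triptolide the stress genes had already parted. Of all 18503 genes tested there, 5984 fell and 4525 rose at an adjusted p under 0.05 (edgeR). Without the 3 shallow libraries, the log2(fold change) was -2.72 for CHAC1, -1.95 for TRIB3, -1.88 for DDIT4, -0.72 for DDIT3 and -0.19 for SESN2. SESN2 was at 63.5 and 65.1 CPM in the 2 deep wells, inside the DMSO range, while TRIB3 at 19.9 and 18.95 CPM and DDIT4 at 15.3 and 13.7 CPM were below it. ATF4 at 688 and 581 CPM was inside the DMSO range, with a log2(fold change) of -0.00. With all libraries the values were -2.69 for CHAC1, -1.92 for TRIB3, -1.91 for DDIT4, -0.67 for DDIT3 and -0.26 for SESN2.

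Over the 19 conditions, the spread of mean levels differed widely between members. The highest mean was 165 times the lowest for SESN2 and 89.5 times for TRIB3, both lowest with 10000 nM triptolide. It was 13.7 times for PSAT1, 7.78 times for ALDH1L2, 7.73 times for ATF4, 6.79 times for MTHFD2 and 4.99 times for ASNS. CHAC1, DDIT4 and DDIT3 were lowest with 1000 nM triptolide, where each had a well at 0 counts, so no ratio is given for them. The highest mean was with 10000 nM pyrazolanthrone for 7 of the 10 members, among them DDIT4 and ALDH1L2, which the rule chose by that rise. It was with 10000 nM homoharringtonine for ATF4 and DDIT3 and with 10000 nM nilotinib for SESN2. The share of all genes with their highest mean in each condition was not counted. PSAT1, MTHFD2, ALDH1L2 and ASNS had their lowest mean with homoharringtonine.

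The likeness of patterns was measured as Pearson's r of mean log2(CPM + 1) over the 19 conditions. They share wells, depth and base composition, and include triptolide and the highest pyrazolanthrone dose, whose values chose CHAC1, DDIT4 and ALDH1L2. Both CHAC1 and DDIT4 had their lowest mean with triptolide and their highest with that pyrazolanthrone dose. Likeness without these conditions was not tested, so r is given as a description. Of all pairs of members, TRIB3 and CHAC1 were most alike at 0.98, followed by DDIT4 and CHAC1 at 0.97 and DDIT3 and ATF4 at 0.95, and PSAT1 and ATF4 were least alike at -0.75. Among 9370 other protein-coding genes with a mean of at least 10 CPM, TRIB3 was also the closest to CHAC1, before MID1IP1 and IRF2BPL at 0.98, and CHAC1 the closest to DDIT4, before SOCS7 and RGS3 at 0.96. ATF4 was closest to MED19, EAF1 and CCDC174, at 0.97 each. ASNS was closest to GARS1, which charges glycine onto its transfer RNA, at 0.91, and then to GTF2H5 at 0.85 and RWDD2B at 0.84.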

How the data were processed

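The 72 libraries from U2OS wells were made, per the labels, with a stranded TruSeq kit and poly(A) selection and quantified by the authors with RSEM on GRCh38. Versions, annotation and strand setting are not given in the sources used here. The submitters' processing notes also name HTSeq and DESeq2. The deposited expected counts are RSEM estimates, not normalized. The deposited TPM values and the deposited FPKM values were scaled by the authors for transcript length and depth. The deposited length columns are the authors' abundance-weighted transcript lengths.

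Symbols and positions came from GENCODE release 44, start sites and promoters from RefSeq tables of GRCh38.p14. Expected counts were rounded and tested with edgeR 4.0.16 in R 4.3.3 (TMM, filterByExpr at its default of 10 counts, then the quasi-likelihood test by glmQLFit and glmQLFTest), and p-values were adjusted over all genes tested by Benjamini-Hochberg. Each compound and dose was fitted alone with the 18 DMSO wells, and trends on log10 dose over the 9 wells of a compound. A call was an adjusted p under 0.05. Alternatives were DESeq2 1.42.0, other scalings and filters, left-out wells, a joint fit, a replicate block, fragment length and GC slope. The last 2 and the longer promoter window were chosen after seeing the data. Scripts were tested on simulated data.

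Permutation tests were two-sided and used scipy 1.17.1. Replicate numbers come from the labels, which do not say that wells of one number belong together. Correlations of deviations between same-numbered wells averaged -0.23 to 0.07 with DMSO over the 6 compounds and were as low as -0.83. Between doses of a compound they averaged 0.22 for pyrazolanthrone, 0.25 for nilotinib and 0.13 for miglitol, against -0.18 for triptolide, -0.10 for homoharringtonine and -0.26 for MK-2206, and each compound had pairs at -0.22 or below. Not every pair was above 0.1, so the numbers were not taken to pair the wells.

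The members and gene lists were chosen with earlier results of these data known. All 10 members are named. Of the other lists, the largest rise and fall with 10000 nM homoharringtonine are named, with some of those with 10000 nM nilotinib, chosen after their values were seen, and for ATF4, CHAC1, DDIT4 and ASNS the 3 genes with the most similar pattern.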

Additional observations from a re-analysis of the deposited data

How the results depend on the processing

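The counts of members that rose and fell with homoharringtonine stayed within 1.5 times the reported ones under all alternatives run, and the order of levels in DMSO was the same in FPKM and without the shallow well. Leaving out each treated well gave 7 to 8 falls at 100 nM, 7 at 1000 nM and 6 at 10000 nM, with 2 rises throughout. The 11 member calls with nilotinib over its doses became 3 when scaled to mitochondrially encoded mRNAs and 5 when a log2(fold change) beyond 1 was also required, and ranged from 10 to 14 without single wells. The 6 calls with MK-2206 became 0 under both of these settings and 12 with GC slope as a covariate, and ranged from 2 to 4 without single wells. The 0 calls with miglitol became 1 with DESeq2, with either covariate and in 1 fit over all 72 wells. The 2 calls with pyrazolanthrone became 1 with library sizes only and 0 with the mitochondrial scaling, without a filter, with at least 10 counts in every well, with fragment length as a covariate, in the fit over all 72 wells and with the fold requirement, and ranged from 0 to 2 without single wells. DESeq2 gave 5 members a dose trend with nilotinib instead of 2, and 1 with MK-2206 instead of 0. The replicate block with DMSO wells 1 to 3 gave 2 calls with MK-2206, 5 with miglitol, 0 with pyrazolanthrone and 4 trends with nilotinib. With a block, the trends of ALDH1L2 (0.36, adjusted p = 0.059, edgeR) and MTHFD2 (-0.35, adjusted p = 0.056) with homoharringtonine did not pass. Same-numbered wells did not all deviate together, though between doses of nilotinib they correlated at 0.25 on average. The block fits are given as a description, with no reading of the size of an effect. The 2 members with a promoter match became 1 for TGATGCAA alone and 6 over 1000 bases.

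For single members in tested comparisons, 1888 values under the alternatives kept direction and call, 59 lost a call, 52 gained one and 3 changed sign, and sign changes between values that both missed the threshold were not counted. The 3 were DDIT4 at -0.18, PSAT1 at -0.13 and MTHFD2 at -0.18 with 10000 nM nilotinib on the mitochondrial scaling. For the described contrasts, 393 values moved by less than the spread between wells and 105 moved by more. A further 4 changed sign with both values beyond that spread, and other sign changes were not counted. The mitochondrial scaling reversed ALDH1L2 to -1.68, PSAT1 to -2.20 and MTHFD2 to -2.19 with 10000 nM triptolide and PSAT1 to -1.91 with 1000 nM. With at least 10 counts in every well, 46 of 180 member values were not fitted. The causes were not tested. Depth limits CHAC1, DDIT4 and DDIT3 under triptolide, where single wells held 0 to 28.4 counts at the upper 2 doses, and all members in the well of 70767 counts.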
